A study of Drosophila melanogaster with 6 samples.

Results

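The Halloween genes encode the enzymes that turn dietary sterol into the moulting hormone ecdysone, and 10 genes of this pathway were followed here among 17908 genes in the table. They were chosen by name, for their place in the pathway: the gland enzymes nvd, spo, spok, sro, phm, dib and sad, the target-tissue enzyme shd, and the zinc-finger regulators mld and ouib. Polyadenylated RNA of whole Drosophila melanogaster larvae was counted in 6 libraries, 2 for each of 3 genotypes, to find genes that depend on the m6A methyltransferase METTL16, which the labels call fio. Control larvae were fiomut/cyo, in which CyO, a balancer, stands opposite the fio mutant chromosome. Mutant larvae were fiomut/fiomut ;U6mut/U6+, with fiomut on both homologues and U6mut opposite a U6+ chromosome. Rescue larvae were fiomut ,[U6+]/fiomut ;U6mut/U6+, which adds an element written [U6+] to the mutant genotype, and the labels do not describe that element further. All 3 groups therefore carry at least 1 fiomut chromosome, and both mutant and rescue carry U6mut, which the control label does not list. The labels give no larval stage or age, do not say which U6 gene or what kind of lesion is meant, and do not state that the 2 libraries of a genotype are separate collections of larvae. The p-values below therefore rest on library-to-library spread that may be technical.

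Library totals were 15983161 to 17847161 counts. Larval markers were plentiful: the 6 larval serum protein, fat body and larval cuticle genes listed for the stage summed to 72199 and 74244 CPM (counts per 1000000, with library sizes scaled by trimmed-mean factors) in control against 46506 and 52193 in mutant, and 62537 and 75769 in rescue. Of those 6 genes, 4 were called lower in mutant than in control and 4 higher in rescue than in mutant, against 7.04% and 7.61% of all genes tested. Their part in the results below was not tested. The near-equal control sums hid a difference in Fbp1, which had 2271 CPM in control 1 and 13225 in control 2. Its mutant libraries held 501 and 398 CPM, and its rescue libraries 17064 and 21050 CPM. Lsp2 was also higher in control 2, at 2232 against 1394 CPM in control 1. Lcp1, Lcp2, Lsp1alpha and Lsp1beta were lower in control 2 than in control 1. The female yolk protein genes Yp1, Yp2 and Yp3 summed to between 11.7 and 44.9 CPM in all libraries. Within that sum Yp2 was called higher in mutant than in control, at 14.0 and 7.52 against 0.376 and 1.64 CPM. Yp3 was called lower, at 8.95 and 5.08 against 25.0 and 43.0 CPM. The control libraries differed for many genes of the ecdysone system, so results against control are given with each library's value. For phm, sad, Hr4 and Eip78C, for example, control 1 lay near the mutant libraries and control 2 well above them. This did not hold for all: for br, Eip74EF, vvl and Cyp18a1 both control libraries lay above both mutant libraries. Control 1 held 424 CPM of br, against 74.1 and 139 in mutant. In RNA of whole larvae, fewer gland cells and less RNA per gland cell cannot be told apart. Nor can a difference in larval stage, which the labels do not give, be told apart from an effect of genotype.

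In larvae, ecdysone is made in the prothoracic gland, a part of the ring gland, and is converted to its active form in fat body, gut and Malpighian tubules. A rise of the hormone sets off each moult and the onset of metamorphosis. The enzyme genes are switched on together in the gland under control of the brain hormone PTTH, insulin and other signals, and of transcription factors of which some act on nearly all of the enzymes and others, such as mld and ouib, on few.

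The genes differ in structure. The first enzyme of the chain is nvd, a Rieske oxygenase that acts on cholesterol (3L, 24324866 to 24401655, Release 6), and it spans 76790 bases with 6 exons and a longest intron of 34792 bases. The cytochrome P450 gene spok, the larval enzyme of the little-understood middle steps, spans 31677 bases on 3R (3322810 to 3354486), of which 29910 are its only intron. Its paralog spo, which serves embryos and adult ovaries, is a gene of 1 exon (3L, 5590083 to 5592571). The short-chain dehydrogenase gene sro lies at 3R, 29794597 to 29795805. The hydroxylase genes phm (X, 18685766 to 18688433, named phtm by RefSeq), dib (3L, 4062292 to 4064551) and sad (3R, 11877235 to 11879754) are compact, with longest introns of 379, 140 and 476 bases. The gene shd, whose P450 converts ecdysone to the active hormone, lies at 3L, 14614458 to 14622205. The regulator gene mld spans 38247 bases (3R, 24585653 to 24623899), and ouib 1252 bases (3R, 8725479 to 8726730). The ends of sro, dib, sad, spo and mld overlap the neighbouring genes Rnb, wit, CG6962, l(3)psg2 and Syx18 on the opposite strand, and the strand setting of the counts is not given in the sources used here, so a few reads of these genes may be exchanged with those neighbours.

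Levels of different genes were compared per length, as FPKM deposited by the authors. In control larvae the highest level was that of sro, at 27.2 ± 10.8 FPKM (mean ± SD, n = 2 here and below), followed by shd at 15.9 ± 3.43. The levels of sad (7.69 ± 4.64 FPKM), mld (6.46 ± 0.609), phm (6.43 ± 4.07) and spok (4.43 ± 1.79) came next, and among these 4 each overlapped the next in order over the libraries, while sro, shd and this group did not overlap at their borders. The lowest were nvd (0.581 ± 0.129 FPKM), ouib (0.547 ± 0.271) and dib (0.498 ± 0.539), whose ranges also overlapped. In mutant larvae shd stood first, at 21.1 and 36.7 FPKM against 16.1 and 7.98 for sro. In rescue larvae sro was again first (40.5 ± 9.18 FPKM), and sad (20.6 ± 1.51), shd (18.8 ± 4.08) and phm (17.6 ± 1.27) followed with overlapping ranges. The entry enzyme nvd and the hydroxylase gene dib were thus among the scarcest transcripts of the pathway in every genotype. The gene spo had 1 count, in rescue 1, and 0 in the other 5 libraries, and a count of 0 allows up to 0.164 to 0.226 CPM per library. Reads of spo and spok could be split between these paralogs by the counting, but hardly any were placed on spo.

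**Figure D1:**
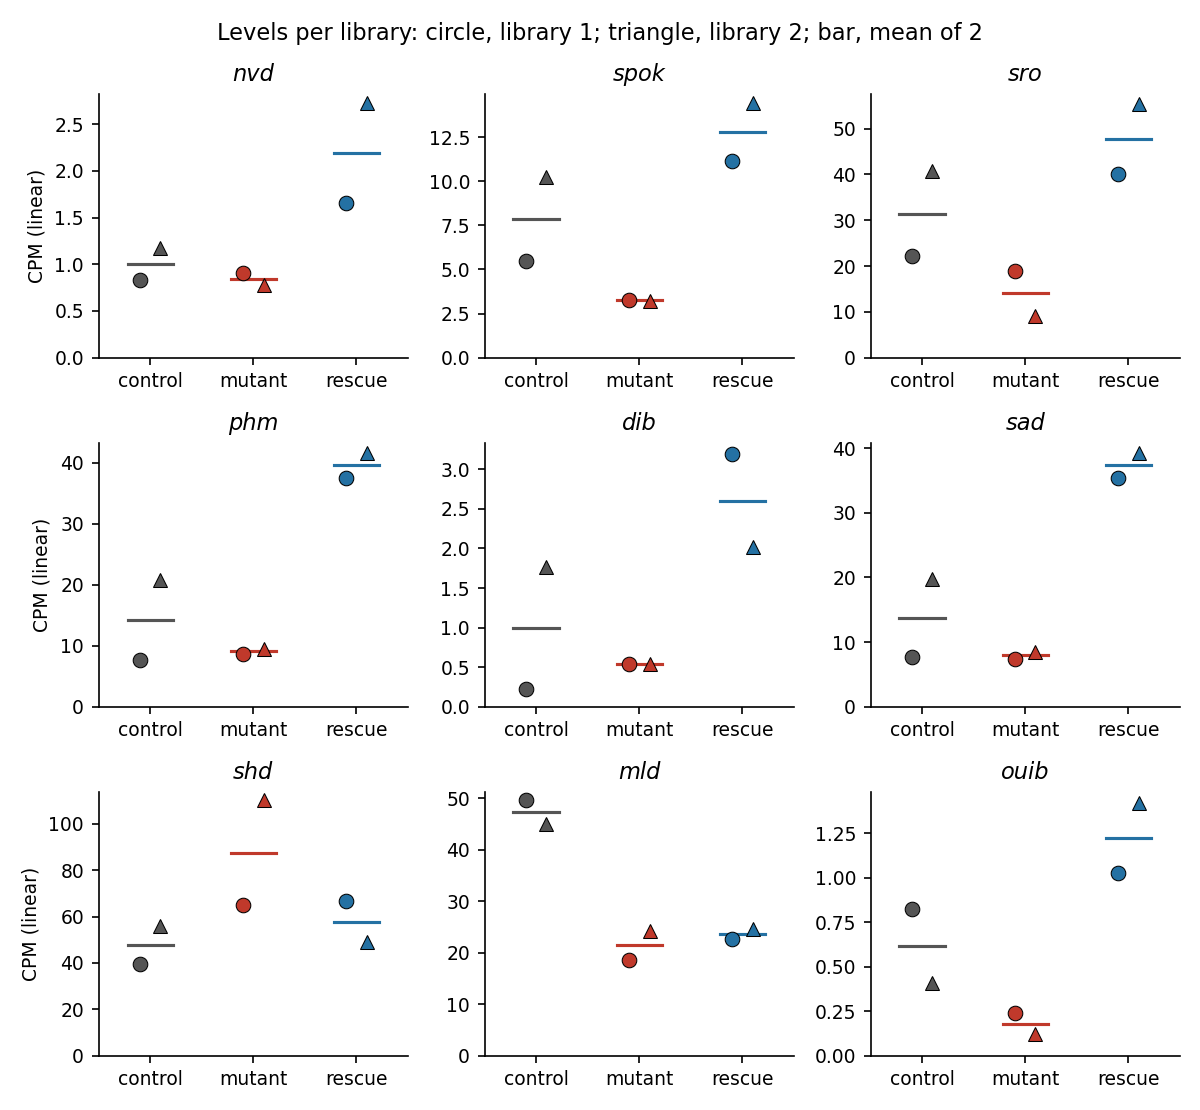
Level of 9 pathway genes in each of the 6 libraries, in CPM on a linear axis that starts at 0 (circle, library 1; triangle, library 2; horizontal bar, mean of the 2 libraries). Both rescue libraries lie above both mutant libraries for nvd, spok, sro, phm, dib, sad and ouib, while mld is at 45.0 and 49.8 CPM in control and at 18.6 to 24.5 CPM in the other libraries.

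The comparison of mutant with control larvae bears on the loss of fio, although these genotypes also differ in CyO and U6mut. The larval gland enzyme gene spok and the regulator gene mld were lower in mutant, by 1.28 and 1.15 on the log2 scale, and none of the 10 genes was called higher. The 9 genes that passed the low-count filter (all but spo) gave these 2 calls at an adjusted p under 0.05, where p-values are those of edgeR's quasi-likelihood test adjusted over 11866 genes by the Benjamini-Hochberg method. Over all genes tested 17% were called in this comparison, 7.04% lower and 9.94% higher. The 6 larval gland enzymes nvd, spok, sro, phm, dib and sad had a median log2 difference of -0.85, with 1 called and all 6 negative, against a median of -0.02 over all genes tested. These signs rested on control 2: without it 4 of the 6 were positive (nvd 0.03, phm 0.25, dib 1.24 and sad 0.05), and spok and sro were at -0.76 and -0.65.

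The gene spok had 73 and 174 counts in control and 54 and 54 in mutant, or 5.49 and 10.2 CPM against 3.27 and 3.22 CPM. Both mutant libraries lay below both control libraries, and control 1 lay nearer to the mutant than to control 2. The difference was -1.28 on the log2 scale (SE 0.36, edgeR adjusted p = 0.0491). That call was lost without control 2, where the difference was -0.76 (edgeR adjusted p = 0.177). It was also lost without mutant 1 or mutant 2, where the difference stayed at -1.28 and -1.27 (edgeR adjusted p = 0.181 and 0.182). The fit of these groups alone (edgeR adjusted p = 0.0699) and limma on FPKM (0.0615) did not call it either. The gene sro had 22.1 and 40.7 CPM in control and 18.9 and 9.20 CPM in mutant, which do not overlap, and its difference of -1.16 (SE 0.42) missed the threshold (edgeR adjusted p = 0.0991). Both mutant libraries lay below both control libraries for 4 of the 9 genes, as they did for 30.2% of all genes tested.

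The side-chain hydroxylase gene phm, by contrast, had 7.67 and 20.8 CPM in control and 8.71 and 9.49 CPM in mutant. Control 1 lay below both mutant libraries and control 2 above both. The ring hydroxylase gene sad had 7.67 and 19.7 CPM in control and 7.38 and 8.48 CPM in mutant, with control 1 between the mutant libraries and control 2 above both. Neither difference passed the threshold, at -0.65 for phm (95% interval -1.64 to 0.34, edgeR adjusted p = 0.315) and -0.79 for sad (interval -1.75 to 0.17, edgeR adjusted p = 0.218). Without control 1 both were called, at -1.18 and -1.30 (edgeR adjusted p = 0.0221 and 0.0174), and without control 2 both signs turned, to 0.25 and 0.05. The gene dib had 3 and 30 counts in control and 9 and 9 in mutant, and nvd had 11 and 20 against 15 and 13 counts. Both sets overlap, and at this depth no difference was detectable for either, with log2 intervals of -2.90 to 1.08 for dib and -1.47 to 0.95 for nvd. Without control 2 their signs turned as well, to 1.24 for dib and 0.03 for nvd.

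**Figure D2:**
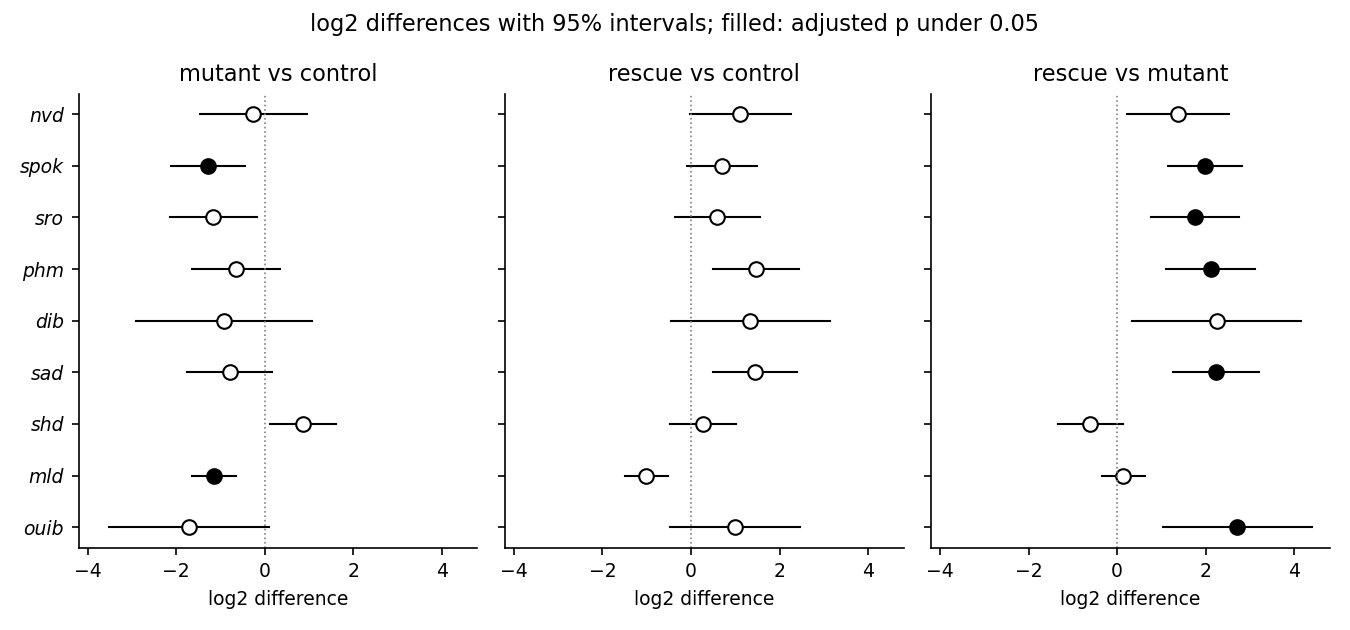
Log2 differences of the 9 tested pathway genes in the 3 comparisons, with 95% intervals from the edgeR fit (filled circles, adjusted p under 0.05). The 5 filled points of rescue against mutant are spok, sro, phm, sad and ouib, the 2 of mutant against control are spok and mld, and there is none for rescue against control.

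Rescue and mutant larvae were compared to ask what changed with the [U6+] element. The gland enzyme genes spok, sro, phm and sad and the regulator gene ouib were higher in rescue, by 3.39-fold to 6.55-fold, and none of the 10 genes was called lower. Those 5 of 9 tested genes compare with 7.61% of all genes called higher, and 8.47% were called lower. The 6 gland enzymes had a median log2 difference of 2.05, with 4 called and both rescue libraries above both mutant libraries for all 6, against a median of 0.00 over all genes tested and 33.8% of all genes with such separated libraries (33.1% with both rescue libraries below). This comparison and the previous one share the mutant libraries.

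The gene sad rose from 7.38 and 8.48 CPM in mutant to 35.4 and 39.3 CPM in rescue (log2 2.23, SE 0.42, edgeR adjusted p = 0.0153). Its fellow hydroxylase gene phm rose from 8.71 and 9.49 to 37.5 and 41.6 CPM (log2 2.12, SE 0.43, edgeR adjusted p = 0.0199). In both genes the rescue libraries stood well apart from the mutant libraries, which agreed closely with each other. The gene spok rose from 3.27 and 3.22 to 11.2 and 14.4 CPM (log2 1.98, SE 0.36, edgeR adjusted p = 0.0137). The gene sro rose from 18.9 and 9.20 to 40.0 and 55.4 CPM (log2 1.76, SE 0.42, edgeR adjusted p = 0.0338), with mutant libraries that differed more from each other than those of phm, sad or spok. The scarce genes dib and nvd had differences of 2.25 (interval 0.34 to 4.16) and 1.37 (interval 0.22 to 2.53) and missed the threshold (edgeR adjusted p = 0.102 and 0.1002). Their counts were 9 and 9 in mutant against 56 and 37 in rescue for dib, and 15 and 13 against 29 and 50 for nvd, so the libraries of both genes were separated. No gene was called without mutant 1 or without mutant 2, 4 were called without rescue 1 and 1 (sad) without rescue 2. In these settings, with a lone library in 1 group, the log2 differences of the 5 genes stayed between 1.33 and 3.27. Without mutant 1, edgeR adjusted p-values were 0.0680 to 0.148 for these 5 genes, and without mutant 2 they were 0.0900 to 0.191.

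Rescue and control larvae were compared to ask how far the [U6+] larvae differ from the controls. None of the 9 genes passed the test, and over all genes 0.64% were called, 0.354% higher and 0.287% lower. At an unadjusted p under 0.05 there were 3 of the 9 (phm, sad and mld), and 18.8% of all genes. DESeq2 called 3 of them, phm and sad higher and mld lower, and 8.05% of all genes it tested. All 6 gland enzymes had positive log2 differences, from 0.60 for sro to 1.47 for phm, with a median of 1.23 against 0.07 over all genes tested. Both rescue libraries were above both control libraries for 5 of the 6, the exception being sro, where rescue 1 at 40.0 CPM lay just under control 2 at 40.7. Such separation was found for 30.7% of all genes. For phm the control libraries at 7.67 and 20.8 CPM lay below 37.5 and 41.6 CPM in rescue (log2 1.47, interval 0.49 to 2.45, edgeR adjusted p = 0.127), and for sad 7.67 and 19.7 lay below 35.4 and 39.3 CPM (log2 1.44, interval 0.49 to 2.39, edgeR adjusted p = 0.124). Without control 2, phm, sad and dib were called, at 2.37, 2.28 and 3.49 (edgeR adjusted p = 0.0112, 0.0130 and 0.0489). Without control 1 no gene was called, and the differences were 0.93 for phm, 0.93 for sad, 0.57 for dib, 0.90 for nvd, 0.33 for spok and 0.23 for sro.

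The spread between the control libraries was itself large for these genes. Control 2 exceeded control 1 by 2.71-fold for phm (exact counting interval 2.17 to 3.41), 2.57-fold for sad (2.06 to 3.24), 1.86-fold for spok (1.41 to 2.48), 1.84-fold for sro (1.61 to 2.12) and 7.81-fold for dib (2.43 to 40.0, on 3 counts in control 1). These intervals cover counting error only. For nvd the ratio of 1.42 has an interval of 0.649 to 3.28, so no difference was detectable. A control 2 level of at least 2-fold over control 1 was reached by phm, sad and dib, and by 7.18% of all genes tested. The regulators went otherwise: mld had a ratio of 0.905 (0.815 to 1.01) and ouib of 0.497 (0.163 to 1.40) on 11 and 7 counts. Of the 6 hormone-response genes, control 1 and control 2 had 2.48 and 127 CPM of ImpE2, 3.76 and 73.0 of Eip78C, 6.91 and 36.6 of ImpE1 and 4.96 and 19.9 of ImpE3. The other two differed little between these libraries, at 160 and 159 CPM for Eip74EF and 148 and 175 for Eip71CD. The part of these libraries' difference in the results was not tested beyond leaving each of them out.

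**Figure D3:**
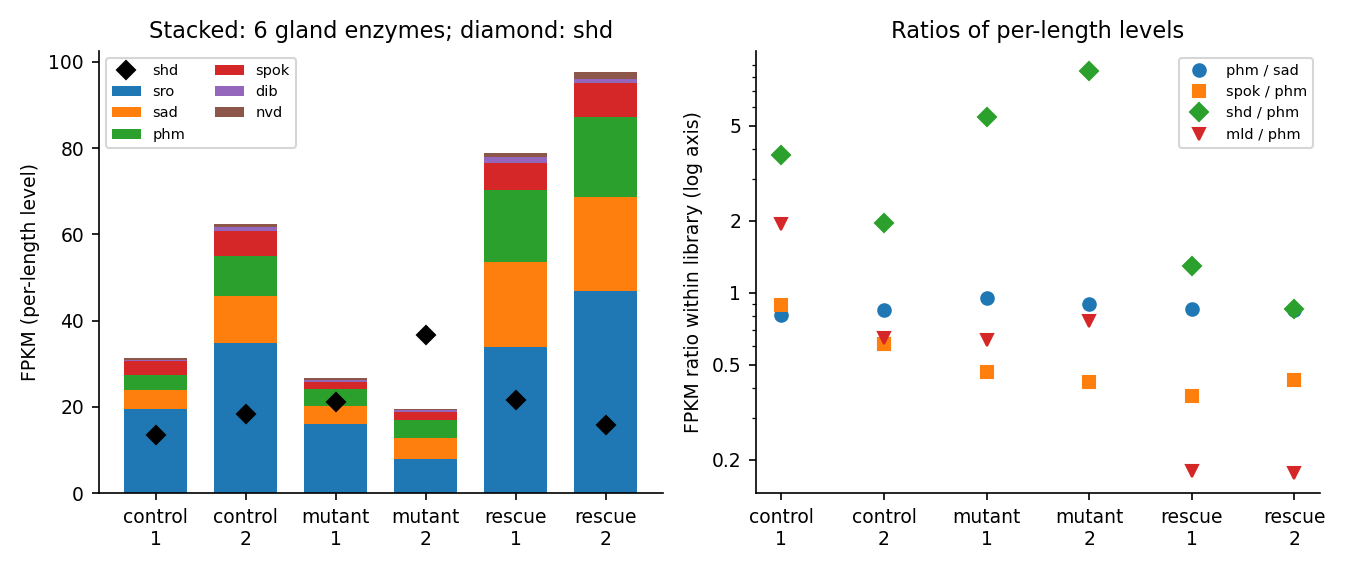
Left, FPKM of the 6 gland enzymes stacked for each library, with shd as a diamond. Right, ratios of FPKM within each library on a log axis. The stacked sum runs from 19.6 to 97.7 FPKM while the phm to sad ratio stays between 0.805 and 0.9499, and shd lies above the stacked sum in mutant 2 alone.

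Within each library the gland enzymes kept different degrees of proportion to one another. The summed level of the 6 genes was 31.3 and 62.3 FPKM in control against 26.7 and 19.6 in mutant and 79.0 and 97.7 in rescue, a range with both mutant libraries lowest and both rescue libraries highest. The ratio of phm to sad moved little over that range, between 0.805 and 0.9499 on the FPKM scale. Their count ratio, which is not scaled by length, ran from 1 in control 1 to 1.18 in mutant 1. The 95% counting intervals of that count ratio overlapped between all libraries. The counts themselves were 102 and 102 in control 1, 354 and 336 in control 2, 144 and 122 in mutant 1, 159 and 142 in mutant 2, 658 and 621 in rescue 1, and 762 and 720 in rescue 2. The ratio of spok to phm was 0.892 and 0.613 in control against 0.468 and 0.423 in mutant and 0.371 and 0.432 in rescue, so both control libraries were above the other 4. The ratio of sro to phm ran from 1.85 in mutant 2 to 5.50 in control 1. In the sum, sro contributed 40.6% to 62.5%, while nvd contributed 1.08% to 2.30% and dib 0.372% to 2.01%.

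The target-tissue enzyme gene shd did not follow the gland enzymes. It had 39.8 and 56.0 CPM in control against 64.8 and 110 CPM in mutant, and 66.6 and 48.9 CPM in rescue. Both mutant libraries were above both control libraries, and the mutant and rescue libraries overlapped. No difference passed the test, at 0.87 on the log2 scale for mutant against control (interval 0.13 to 1.62, edgeR adjusted p = 0.101), 0.27 for rescue against control (interval -0.47 to 1.01) and -0.60 for rescue against mutant (interval -1.34 to 0.14). Mutant 2 had the highest level, and without it these differences from mutant were 0.44 for mutant against control and -0.17 for rescue against mutant, against 1.21 and -0.94 without mutant 1. For rescue against control, where the value was near 0, leaving out a library gave 0.03 to 0.54. The FPKM ratio of shd to phm was 3.79 and 1.97 in control against 5.44 and 8.50 in mutant and 1.30 and 0.859 in rescue, with no overlap between the genotypes. The ratio itself was not tested. Markers of tissues that express shd moved as well. Over all genes tested, 9.94% were called higher in mutant than in control and 7.04% lower. Of 6 midgut markers all 6 were called higher in mutant than in control, with sums of 271 to 602 CPM in control, 7232 to 9453 in mutant and 483 to 996 in rescue. Of 4 Malpighian tubule markers 3 were called higher, with sums of 94.9 to 115.2 CPM in control, 355 to 441 in mutant and 155 to 197 in rescue. The 4 fat body markers, of which Lsp1beta, Lsp2 and Fbp1 are also in the larval list, summed to 45774 to 52858 CPM in control, 37707 to 45320 in mutant and 37159 to 48811 in rescue, with 2 called lower in mutant than in control, and no defining marker of the 3 tissues was at 0 in any group. Their part in the level of shd was not tested.

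Of the regulators, mld, a zinc-finger gene needed for nvd and spok expression, was lower in mutant than in control, and its difference between rescue and control was of like size but did not pass the test. The control libraries had 662 and 767 counts (49.8 and 45.0 CPM). The mutant libraries had 307 and 406 counts (18.6 and 24.2 CPM) and the rescue libraries 397 and 449 (22.6 and 24.5 CPM). All 4 mutant and rescue libraries lay below both control libraries. The log2 difference was -1.15 for mutant against control (SE 0.21, edgeR adjusted p = 0.0137) and -1.01 for rescue against control (SE 0.21, edgeR adjusted p = 0.0691). The rescue difference was called in 2 of 10 alternatives, DESeq2 (adjusted p = 0.00222) and no low-count filter (edgeR adjusted p = 0.0437), and the other adjusted p-values ran from 0.0574 to 0.263. Rescue and mutant differed by 0.14 (interval -0.35 to 0.63, edgeR adjusted p = 0.675). The call for mutant against control was lost without mutant 1 (edgeR adjusted p = 0.0674). In the rescue larvae spok, one of its known targets, was at 11.2 and 14.4 CPM. The mutant libraries held 3.27 and 3.22 CPM of spok and the control libraries 5.49 and 10.2. For nvd the values were 1.65 and 2.73 CPM in rescue, 0.907 and 0.776 in mutant and 0.827 and 1.17 in control. The part of mld in these levels was not tested. The neuronal markers elav, nSyb, brp and Syt1, listed because mld is not restricted to the gland, summed to 208 and 253 CPM in control against 174 and 178 in mutant and 223 and 303 in rescue. Of these 4 genes, 2 were called lower in mutant than in control and 0 were called between rescue and control. Over all genes tested, these shares were 7.04% and 0.64%.

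The position of mld bears on this comparison. The 3 U6 genes of the table, snRNA:U6:96Aa, snRNA:U6:96Ab and snRNA:U6:96Ac, lie together on 3R (24556088 to 24557321), and mld begins 28.3 kb beyond them, with REPTOR and CG13625 between. Mutant and rescue larvae carry U6mut and control larvae are not listed with it, so an effect of fio on mld and an effect of the chromosome that carries U6mut cannot be told apart. The other gland genes on 3R are 5237 kb (sro) or more from these U6 genes. Of the 23 tested genes within 100 kb of the U6 genes, mld among them and in a window chosen after the value of mld was seen, 8 had both mutant and both rescue libraries below both control libraries, which is 34.8%, against 12.3% of all genes tested. Because of that choice the share is a description only. The 8 were CG13625, mld, Syx18, atl, MtnF, puf, Pp1alpha-96A and CG13623. They were 6 of 11 genes on the mld side of the cluster and 2 of 12 on the other. The genes closest to the U6 genes, Esyt2 and REPTOR, were not among the 8 and were called in no comparison. CG13625, the gene next to mld, had 9.29 CPM in control, 3.33 in mutant and 5.95 in rescue (log2 -1.48 for mutant against control, edgeR adjusted p = 0.0142). Syx18, which overlaps the end of mld, had 25.6, 16.02 and 14.9 CPM, and its differences of -0.68 and -0.78 from control did not pass the test (edgeR adjusted p = 0.0687 and 0.115). MtnF, at -0.99 and -0.98, had similar differences from control in both genotypes but low levels of 2.88, 1.44 and 1.45 CPM. Wsck, 69.7 kb from the U6 genes, was lower in mutant alone, with 14.6 CPM in control, 7.93 in mutant and 14.2 in rescue (log2 -0.88 for mutant against control, edgeR adjusted p = 0.0445, and -0.04 for rescue against control). None of the 23 genes was called between rescue and control by edgeR.

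**Figure D4:**
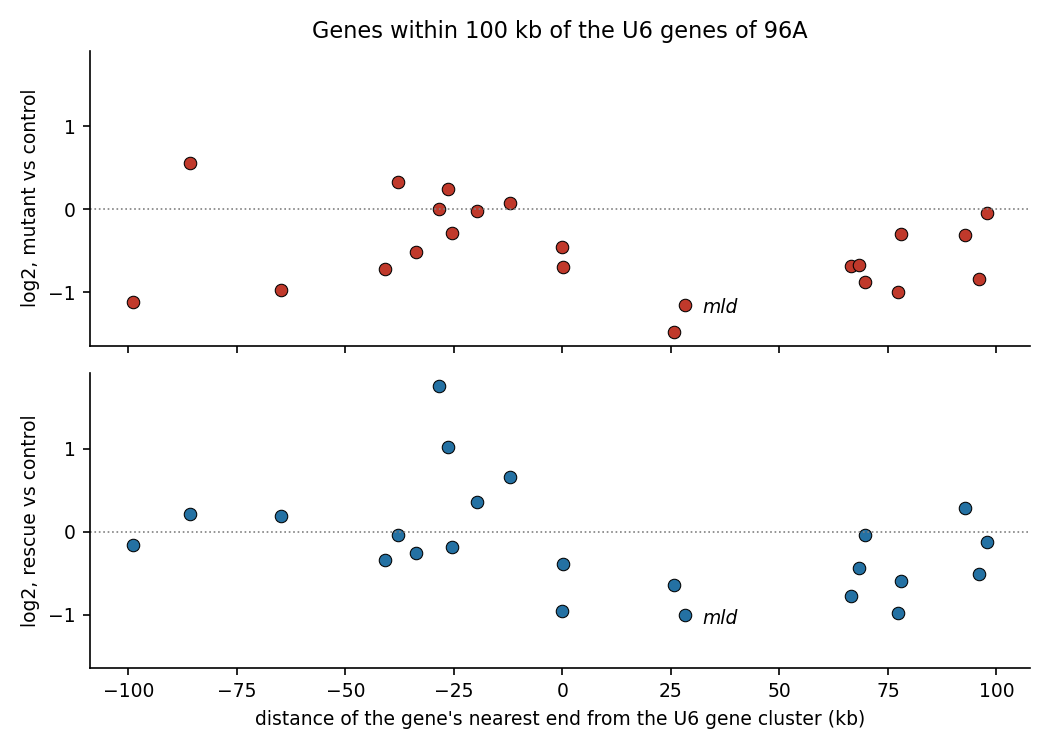
Log2 difference from control of the 23 tested genes within 100 kb of the U6 genes, in mutant (top) and rescue (bottom), against the distance in kb from the U6 cluster to the nearest end of each gene. The gene mld, 28.3 kb away, lies at -1.15 and -1.01, and its neighbour CG13625 at -1.48 and -0.64.

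The other regulator, ouib, is a zinc-finger gene whose known target is spok. It was rare, with 11 and 7 counts in control against 4 and 2 in mutant and 18 and 26 in rescue. As CPM these were 0.827 and 0.411, 0.242 and 0.119, and 1.03 and 1.42, and the 3 genotypes do not overlap. It rose in rescue against mutant (log2 2.71, SE 0.72, edgeR adjusted p = 0.0447), a call that was lost when any of the 4 libraries was left out (edgeR adjusted p = 0.131 to 0.256). Against control it differed by -1.71 in mutant (interval -3.51 to 0.09, edgeR adjusted p = 0.166) and by 0.9999 in rescue (interval -0.46 to 2.46, edgeR adjusted p = 0.440). Unlike the enzymes, ouib was higher in control 1 than in control 2, within counting error.

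Transcription factors of the gland were lower in mutant and higher in rescue in several cases. Of 9 tested genes of this list, 2 were lower and 0 higher in mutant than in control, and 5 were higher and 1 lower in rescue than in mutant, with median log2 differences of -0.76 and 1.39. Over all genes, 17% were called between mutant and control (7.04% lower), 16.1% between rescue and mutant (7.61% higher) and 0.64% between rescue and control. Over the transcription factor list and the 5 lists described after it, 11 genes were called between mutant and control, 18 between rescue and mutant and 0 between rescue and control. Left without mutant 1, the first 2 numbers became 2 and 3, and without mutant 2 they became 4 and 4. Without control 2, 7 genes were called between mutant and control and 6 between rescue and control. Between rescue and mutant, 11 were called without rescue 1 and 9 without rescue 2. The POU factor gene vvl, required for expression of many of the enzymes, had 42.8 and 43.4 CPM in control against 21.8 and 28.9 in mutant and 45.1 and 53.6 in rescue. Its control libraries agree closely, unlike those of the enzymes. It was lower in mutant than in control (log2 -0.76, SE 0.21, edgeR adjusted p = 0.0491) and higher in rescue than in mutant (log2 0.96, SE 0.21, edgeR adjusted p = 0.0260). The factor gene kni, which also acts on the enzymes in the gland, rose from 2.06 and 2.75 CPM in mutant to 8.72 and 5.90 in rescue (log2 1.60, SE 0.41, edgeR adjusted p = 0.0412). The nuclear receptor gene Hr4, which restrains hormone synthesis in the gland, had 1.35 and 21.6 CPM in control against 0.665 and 1.02 in mutant and 59.0 and 60.3 in rescue. It rose in rescue against mutant by 6.14 on the log2 scale (SE 1.16, edgeR adjusted p = 0.0161). The ecdysone-induced gene br was lower in mutant than in control by 2.24 and higher in rescue than in mutant by 2.63, and Eip75B rose by 1.39 in rescue. The nuclear receptor gene ftz-f1 fell by 1.21 in rescue against mutant (SE 0.29, edgeR adjusted p = 0.0321), from 16.7 and 22.6 to 9.69 and 7.26 CPM. Hr4, br and Eip75B overlap a neighbouring gene on the opposite strand.

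**Figure D5:**
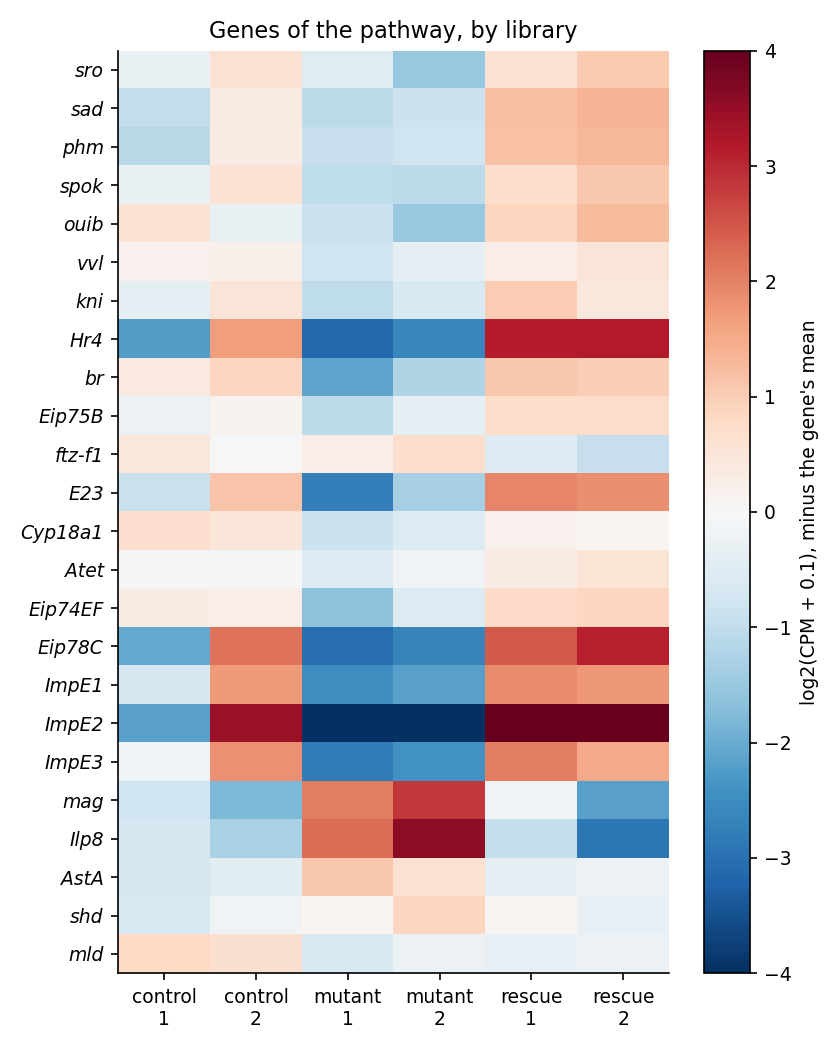
Log2(CPM + 0.1) of 24 genes of the pathway in each library, minus the gene's mean over the 6 libraries (red, above the mean; blue, below; colours stop at 4 units). Control 1 is blue with the mutant libraries for phm, sad, Hr4, Eip78C and ImpE2, control 2 is red with the rescue libraries for the same genes, and mld is red in both control libraries only.

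Among signals to the gland, the share of genes called was near that of all genes. Of 20 tested genes on this list mutant larvae had 3 above control by the test and none below, where 17% of all genes were called, and 1 was called higher and 2 lower in rescue than in mutant, where 16.1% were. The relaxin-like gene Ilp8, whose hormone delays hormone synthesis when tissues grow poorly, was at 1.13 and 0.705 CPM in control against 9.13 and 23.2 in mutant and 0.912 and 0.164 in rescue. It was higher in mutant than in control by 4.15 (SE 0.72, edgeR adjusted p = 0.0111) and lower in rescue than in mutant by 4.90. The neuropeptide gene AstA was higher in mutant than in control by 1.41 (edgeR adjusted p = 0.0179) and fell by 1.16 in rescue against mutant, and the insulin-like gene Ilp3 was higher in mutant than in control by 1.84 (edgeR adjusted p = 0.0332). The EGF ligand gene spi rose by 1.12 in rescue against mutant (edgeR adjusted p = 0.0439). The gene Ptth, of the brain hormone that acts on the gland, was near detection, with 16 and 14 counts in control against 21 and 26 in mutant and 27 and 14 in rescue, and no difference was detectable. Its receptor gene tor had 5 to 18 counts per library. Ilp8 and Ilp3 overlap neighbouring genes.

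Of the 8 genes for sterol supply and electron transfer to the mitochondrial P450 enzymes, only 1 was called. Over all genes tested, 17% were called between mutant and control and 16.1% between rescue and mutant. The called gene was the lipase gene mag. It had 159 and 78.5 CPM in control against 1141 and 1938 in mutant and 250 and 60.6 in rescue, a log2 difference of 3.70 for mutant against control (SE 0.72, edgeR adjusted p = 0.0167) and of -3.31 for rescue against mutant (edgeR adjusted p = 0.0235). The gene is expressed in the gut, whose markers moved in the same way (above). The part of gut tissue in the level of mag was not tested. The sterol transport genes Npc1a and Npc2a were not called, although Npc2a had 63.6 and 44.8 CPM in mutant and 111 and 109 in rescue (log2 1.02, edgeR adjusted p = 0.0698). The adrenodoxin reductase gene dare, at 14.3 ± 1.35, 18.6 ± 0.169 and 13.6 ± 0.175 CPM, and the ferredoxin genes Fdx1 and Fdx2 were not called either. The splicing factor genes ecd and Prp8, known to be needed for removal of the spok intron, had 34.3 ± 6.06 and 141 ± 6.68 CPM in control against 30.3 ± 5.08 and 115.5 ± 37.5 in mutant and 41.3 ± 0.228 and 139 ± 2.01 in rescue, and neither was called in any comparison. Counts per gene hold no measure of spliced against unspliced RNA.

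Among 5 genes for release, uptake and inactivation of the hormone, rescue larvae had 3 above mutant by the test and none below. Of all genes tested, 7.61% were called higher in this comparison. Oatp74D went the other way without a call (log2 -0.72, edgeR adjusted p = 0.117). Its rescue libraries held 138 and 165 CPM, below the mutant libraries at 193 and 305 CPM. Eo was not called either (log2 0.81, edgeR adjusted p = 0.254). The vesicle transporter gene Atet, used for release of ecdysone from the gland, rose by 0.78 on the log2 scale (edgeR adjusted p = 0.0472). The transporter gene E23 rose by 3.79 (edgeR adjusted p = 0.0161), with 8.79 and 35.8 CPM in control against 2.36 and 6.51 in mutant and 63.0 and 60.0 in rescue. Cyp18a1, which inactivates the hormone, lies 104 bases from phm on X in tail-to-tail orientation. It had 40.2 and 35.1 CPM in control against 13.7 and 17.3 in mutant and 28.0 and 26.2 in rescue, lower in mutant than in control by 1.28 (edgeR adjusted p = 0.00895) and higher in rescue than in mutant by 0.81 (edgeR adjusted p = 0.0410). Its neighbour phm differed in having control 1 as low as the mutant. Of 6 hormone-response genes, 4 were called lower in mutant than in control (ImpE1, ImpE2, ImpE3 and Eip74EF), against 7.04% of all genes tested. In rescue against mutant 5 of the 6 were called higher (the same genes and Eip78C), against 7.61% of all genes. Median log2 differences of the 6 genes were -3.61 and 4.37. The largest was ImpE2, with 2.48 and 127 CPM in control against 0.363 and 0.299 in mutant and 203 and 197 in rescue. Of markers of other ring gland cells, jhamt of the corpus allatum had 0.902 to 1.94 CPM in all libraries and was called in no comparison. Akh and Lst of the corpora cardiaca, with jhamt, summed to 247 and 244 CPM in control against 108 and 142 in mutant. The rescue sums were 239 and 269 CPM, and Lst made up most of each sum. Akh did not fall with Lst: its mutant libraries, at 5.62 and 7.17 CPM, lay above its control libraries at 2.10 and 2.52 CPM. The rescue libraries held 1.37 and 4.37 CPM of Akh. Of these 3 genes 1 was called lower in mutant than in control and 1 higher in rescue than in mutant, and the part of these cells in the results was not tested.

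The mean standardized profile of the 6 gland enzymes over the 6 libraries was compared with every other tested gene of at least 1 CPM. The genes most like it were CG3163, Achl, CG1943, CG42835 and Septin2, the last listed in the table under a name changed to a date, with Pearson r of 0.998, 0.997, 0.996, 0.995 and 0.994. The libraries form 3 genotypes, so this is a description of rank and shape with 6 points, given without a p-value. Of 10990 genes compared, 255 (2.32%) reached an r of at least 0.95. Achl followed the enzymes with a wider range, from 0.225 and 11.7 CPM in control and 0.0605 and 0 in mutant to 64.6 and 110 in rescue. CG1943 was more evenly expressed, at 91.9 and 135 CPM in control against 87.8 and 77.4 in mutant and 172 and 190 in rescue. Of the pathway genes outside the profile, r was 0.75 for ouib, -0.31 for shd and -0.08 for mld.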

How the data were processed

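The authors sequenced polyadenylated RNA of larvae, per the labels, and deposited raw read counts per gene with NCBI gene identifiers, positions and gene lengths per the file headers. A second deposited table holds FPKM by the authors; dividing counts by these values and by length gives denominators of 0.980 to 1.02 times the library sizes used here. For the aligner, counting tool, strand setting and build: not given in the sources used here. RefSeq matching covered 17669 of 17908 genes (Release 6), 99.5% of them and all 10 pathway genes with the same start. Exons were taken from the Ensembl annotation of the same assembly.

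Counts were tested with edgeR 4.0.16 in R 4.3.3 (TMM factors, filterByExpr with a minimum count of 10, quasi-likelihood test, 6 libraries and 3 groups in 1 fit without a block). P-values were adjusted by Benjamini-Hochberg within each comparison over 11866 genes and called under 0.05. CPM used TMM-scaled library sizes. Standard errors are the log2 difference over the square root of F, and 95% intervals use the fit's degrees of freedom. Alternatives were DESeq2 1.42.0, DESeq2 size factors, no filter, fits of 2 groups, a replicate block, limma 3.58.1 on log2(FPKM + 0.1), and leaving out each library. The genes and lists were chosen with earlier results of these data known. From each list the called genes were named, at most 6 by size of the difference, and other genes named were chosen after their values were seen.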

Additional observations from a re-analysis of the deposited data

How the results depend on the processing

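Of the pathway genes, 2 were called between mutant and control in the fit reported. The number was 1 with only those groups in the fit, 1 with a replicate block and 1 with limma on FPKM, and it ranged from 0 to 4 when a library was left out. Between rescue and mutant, 5 were called, against 3 with the replicate block (edgeR adjusted p = 0.0513 for sro and 0.0632 for ouib) and 0 to 4 without a library. Between rescue and control, 0 were called, against 1 without a low-count filter (mld), 3 with DESeq2 and 0 to 3 without a library. Leaving out 1 library turned signs: without control 2, mutant against control became 0.0261 for nvd, 0.2481 for phm, 1.2353 for dib and 0.0493 for sad (-0.4677, -1.1811, -1.6807 and -1.3047 without control 1), and without mutant 1, rescue against mutant became -0.0460 for mld (0.3436 without mutant 2). Of 268 values of single pathway genes under alternatives, 228 kept their direction and side of the threshold, 24 were no longer called, 11 became called and these 5 changed sign. The spok call between mutant and control was lost with the replicate block (edgeR adjusted p = 0.0517), limma (0.0615) and the fit of 2 groups (0.0699). Over all genes, calls between rescue and control were 76, against 478 without a filter, 996 with DESeq2, 117 with the block, 11 in the fit of 2 groups and 50 to 778 without a library. Without a library, 611 to 1930 genes were called between mutant and control (2015 with all) and 400 to 936 between rescue and mutant (1908 with all). Same-numbered libraries did not deviate together (r = 0.04, 0.06 and 0.02 across genes), so the numbers were not taken as pairs. Low counts limit nvd, dib and ouib. Other causes of these changes were not tested.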
